A study of Homo sapiens with 24 samples.

Results

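The miRNAs described here are 7 mature strands from hairpins that lie inside the HOX gene clusters, listed with the human prefix as hsa-miR-10a-5p, hsa-miR-10a-3p, hsa-miR-10b-5p, hsa-miR-10b-3p, hsa-miR-196a-5p, hsa-miR-196b-5p and hsa-miR-615-3p. The prefix is left out below. They were taken by name from a table of 2656 mature miRNAs, and all 7 passed the filter on low counts that left 905 miRNAs to test. The small RNA libraries came from the human ovarian carcinoma cell line OV90, carrying a doxycycline-inducible shRNA. The shRNA was a negative control (shNeg, called wild type in the sample labels), or targeted RELA or RELB, the transcription factors that drive canonical and non-canonical NF-κB signaling. Every culture, the controls included, had 1 µg/ml doxycycline for 72 h. Each line was grown in adherent culture, in RPMI medium with serum, or as spheroids in ultra-low attachment vessels with serum replacement, EGF and FGF, a culture that favors tumor-initiating cells. This gave 6 groups of 4 libraries, 24 in all, in which medium and attachment changed together and cannot be told apart. The sources used here do not say whether the 4 libraries of a group came from separate cultures, so p-values measure the spread between these libraries, which may be technical.

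The HOX genes encode homeobox transcription factors that give cells their position along the body axis, and they sit in tight clusters in which neighbouring genes tend to be expressed together. The miR-10 and miR-196 hairpins are conserved parts of these clusters, and HOX mRNAs are among the known targets of both families. A hairpin is cut into a 5p and a 3p strand, of which 1 usually becomes the guide that is loaded into Argonaute and the other is mostly degraded. The guide finds mRNAs through its seed, bases 2 to 8. miR-10b is best known in cancer for promoting invasion and metastasis of breast cancer cells, and miR-196 for repressing HOXB8.

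The mature sequences are shown because they set which members share targets and which could share reads. They are from RefSeq (GRCh38.p14), where 6 of the 7 members had a mature entry. The missing entry was that of miR-10b-5p, so its seed and any reads it could share with miR-10a-5p were not examined. The sequences are written 5′ to 3′ with the seed in capitals.
miR-10a-5p: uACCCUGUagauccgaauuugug
miR-10a-3p: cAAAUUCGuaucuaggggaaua
miR-10b-3p: aCAGAUUCgauucuaggggaau
miR-196a-5p: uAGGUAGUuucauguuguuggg
miR-196b-5p: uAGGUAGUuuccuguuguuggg
miR-615-3p: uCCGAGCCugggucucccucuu
The miR-196 guides have the same seed and differ by 1 base, A12C, counted from the 5′ end with the base of miR-196a-5p first. No other miRNA in the table with a RefSeq sequence had that seed. The letters AGGUAG, at bases 2 to 7 of miR-196, stood at bases 3 to 8 of all 8 let-7 guide strands, so the seeds of these families overlap when shifted by 1 base. The seeds of miR-10a-3p, miR-10b-3p and miR-615-3p were each found in no other miRNA of the table that has a RefSeq sequence, which is the case for 795 of the 905 tested. Reads with a sequencing error at the differing base could be assigned to the wrong miR-196 guide.

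On GRCh38.p14, with genes from GENCODE v44, the miR-10 hairpins occupy matching places in different clusters. MIR10A (chr17:48579838-48579947, minus strand) is in an intron of HOXB3 on the same strand, 1488 bases from HOXB4. MIR10B (chr2:176150303-176150412, plus strand) is in an intron of HOXD3, 1138 bases from HOXD4. miR-196a-5p can come from either of 2 hairpins. MIR196A1 (chr17:48632490-48632559, minus strand) is in an intron of HOXB7 and shares the HOXB cluster with MIR10A, 52543 bases away. MIR196A2 (chr12:53991738-53991847, plus strand) is in an intron of HOXC6, 1459 bases from HOXC10. MIR196B (chr7:27169480-27169563, minus strand) overlaps an exon of HOXA9 on the same strand and lies 1042 bases from HOXA10. MIR615 (chr12:54033950-54034045, plus strand) is in introns of HOXC4 and HOXC5. The members thus come from all 4 HOX clusters, and their counts say nothing of which miR-196a hairpin was active or of the HOX mRNAs, which were not measured.

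Total counts were 3797176 to 8283546 in the adherent libraries and 959134 to 3580932 in the spheroid libraries, lowest in spheroid shNeg. Spheroid shNeg replicate 1 stood apart, with a count for only 432 miRNAs against 814 to 887 in the rest of its group. Where a call or a value below depends on it, the value without it is given as well. Values are CPM, counts as a share of the library total on its usual scale, adjusted by TMM, a method that sets the libraries to a common level over most miRNAs. The scaling factors were 1.12 to 1.37 in spheroid shNeg and 0.73 to 1.09 elsewhere. With library totals in place of TMM, the median log2 fold change of all tested miRNAs moved by 0.43 for spheroid against adherent shNeg, by −0.35 for spheroid shRELA and by −0.26 for spheroid shRELB. Smaller changes than these depend on the scaling. Epithelial miRNAs (5 markers: miR-200a-3p, miR-200b-3p, miR-200c-3p, miR-141-3p and miR-205-5p) summed to 2296 to 16647 CPM before TMM. The sum differed between groups. It was 4485 to 4791 CPM in adherent shNeg, 2296 to 2795 in adherent shRELA and 7634 to 10465 in adherent shRELB. The markers did not move together. From spheroid shNeg to spheroid shRELB, mean miR-200c-3p went from 2576 to 12269 CPM and mean miR-205-5p from 2485 to 516 CPM. Of the marker lists of other cells, 6 blood miRNAs summed to at most 48.8 CPM and 3 muscle miRNAs to at most 8.05 CPM. Those of fibroblasts and smooth muscle (4 markers) summed to 64.0 to 368.9 CPM. miR-126-3p, used as the endothelial marker, was at 549 to 6771 CPM in this cell line. Both it and the fibroblast list differed between groups. With shNeg, shRELA and shRELB, the fibroblast list summed to 289 to 359.9, 67.3 to 95.8 and 304 to 368.9 CPM in adherent cells. In spheroids it summed to 136 to 180.2, 64.0 to 91.6 and 199 to 334 CPM. In the same order, miR-126-3p was at 5721 to 6771, 3812.5 to 6440 and 1983 to 2611 CPM in adherent cells. Its spheroid values were 869 to 1119, 1047 to 1597 and 549 to 1184 CPM. The part of these markers in the knockdown results was not tested. RELA and RELB mRNAs are not read by this assay, so the libraries do not show how far either was silenced.

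The 7 members together made up 1.02% to 2.16% of the counts of a library. miR-196a-5p was by far the most abundant, at rank 16 to 23 of the 905 miRNAs in each group. The miR-10 guides and miR-196b-5p were at rank 37 to 108, and the miR-10 3p strands and miR-615-3p at rank 129 to 315. A read stands for 1 whole miRNA, so length does not enter these levels, but different miRNAs can be ligated into a library with different efficiency.

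**Figure D1:**
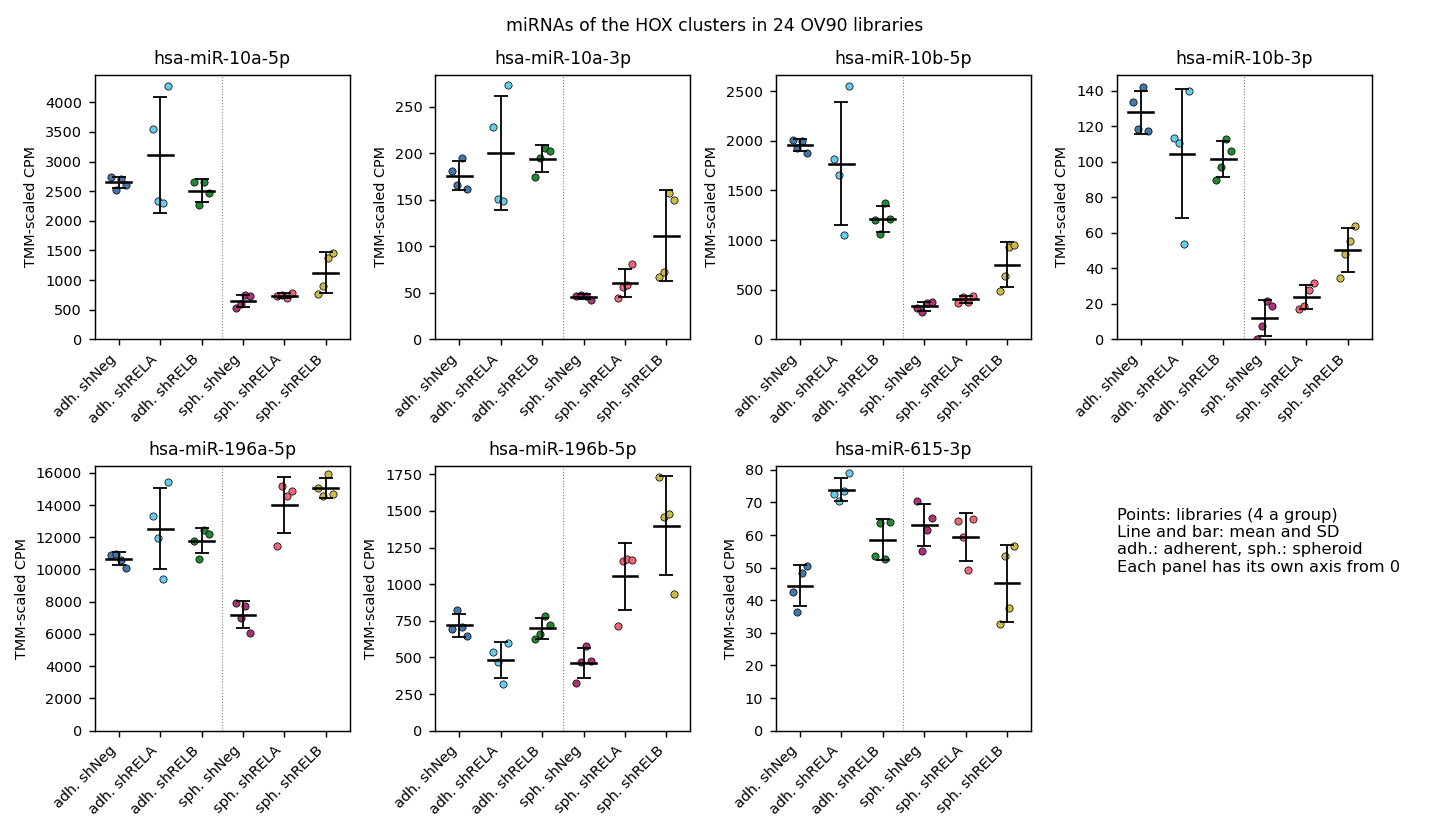
TMM-scaled CPM of each member in each library, 1 panel a miRNA with its own linear axis from 0, by culture and shRNA. Points are libraries, and the line and bar are the mean and SD of 4. The 4 miR-10 strands sit low in every spheroid group, while miR-196a-5p and miR-196b-5p have their highest means in spheroids with shRELA or shRELB.

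The miR-10 strands separated the cultures. All 4 were lower in spheroids than in adherent cells of the control line, by 3.84-fold to 10.2-fold. miR-10a-5p, the guide of the miR-10 hairpin in the HOXB cluster, was at 2742, 2524, 2710 and 2611 CPM in the adherent shNeg libraries. In the spheroid shNeg libraries it was at 530.3, 589, 744 and 726 CPM. The groups were far apart, with means of 2647 ± 98.9 and 647 ± 104 CPM (SD, n = 4). Its log2 fold change was −2.03 (standard error, SE, 0.21, FDR 3.05e-10, edgeR's quasi-likelihood test). A call, here and below, needed an FDR below 0.01 over all 905 miRNAs and an absolute fold change above 2.

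miR-10b-5p, the guide of the HOXD hairpin, was at 2007, 1930.0, 2002 and 1881 CPM in adherent shNeg and at 319, 272, 362 and 375 CPM in spheroid shNeg. It fell by 2.56 on the log2 scale (SE 0.22). The 3p strands went the same way without overlap. miR-10a-3p went from 176 ± 15.4 to 45.8 ± 2.45 CPM, a log2 fold change of −1.94 (SE 0.26). miR-10b-3p went from 128 ± 12.0 to 12.0 ± 10.0 CPM, at −3.36 (SE 0.42). The spheroid values of miR-10b-3p were 0, 7.64, 21.5 and 19.0 CPM, and the 0 was in replicate 1, where it allows up to 3 counts or 2.20 CPM. Without that library its log2 fold change was −2.96, and it was still called.

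The miR-196 guides and miR-615-3p differed less between the cultures. miR-196a-5p was at 10919, 10988, 10596 and 10103 CPM in adherent shNeg and at 7911, 6991, 7741 and 6086 CPM in spheroid shNeg. The groups did not overlap, but the log2 fold change of −0.57 (SE 0.15, FDR 0.0016, edgeR's quasi-likelihood test) was short of the fold threshold. miR-196b-5p had a log2 fold change of −0.63 (SE 0.21) and miR-615-3p of 0.50 (SE 0.21), and neither was called. In all, 4 of the 7 members were called in the control line, all 4 lower. That share is read against a background in which 42.2% of the tested miRNAs were called, 20.9% lower and 21.3% higher. With library totals the background was 238 higher of 385 called, against 193 of 382 with TMM.

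The base composition of a miRNA moved with this comparison and is given for that reason. Over the 795 tested miRNAs with a RefSeq sequence, the 181 with under 45% G and C had a median log2 fold change of −1.70 in spheroid against adherent shNeg. The 230 with 60% or more had a median of 1.67. The miR-10 strands with a sequence have 36.4% to 43.5% G and C, miR-196a-5p has 40.9%, miR-196b-5p 45.5% and miR-615-3p 63.6%. Among the other 180 miRNAs of under 45%, 78 had a lower log2 fold change than miR-10a-5p, 81 than miR-10a-3p and 31 than miR-10b-3p, so the miR-10a strands were near the middle of that class. miR-196a-5p, with as many G and C as miR-10b-3p, was above 141 of the 180. The part of base composition or of the lower depth of the spheroid libraries in these differences was not tested. Markers listed for other cells moved too: miR-126-3p had a mean of 6377 CPM in adherent and 994 CPM in spheroid shNeg, and the 4 fibroblast and smooth muscle markers summed to 289 to 359.9 and 136 to 180.2 CPM. Their part in the result was not tested.

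**Figure D2:**
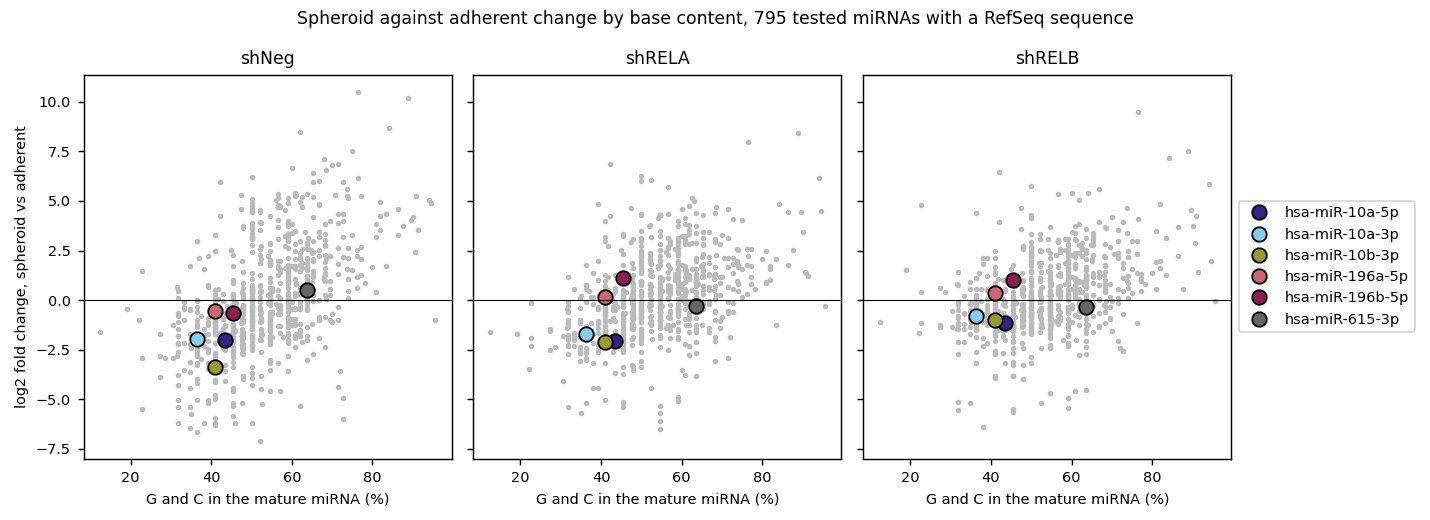
Log2 fold change of spheroid against adherent cells (vertical axis) by percent G and C of the mature miRNA (horizontal axis), 1 panel for each shRNA. Grey points are the 795 tested miRNAs with a RefSeq sequence, and coloured points are the 6 members among them. In the shNeg panel the miR-10a strands are near the median of −1.70 of miRNAs under 45% G and C, and miR-196a-5p is above it at −0.57.

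The cultures were also compared within the knockdown lines. With shRELA the miR-10 strands were again 3.31-fold to 4.40-fold lower in spheroids, and all 4 were called. miR-10a-5p went from 3540, 2329, 2293 and 4279 CPM in adherent shRELA to 739, 744, 695 and 781 CPM in spheroid shRELA. The adherent shRELA libraries were themselves spread, with replicates 1 and 4 above replicates 2 and 3. miR-10b-5p had a log2 fold change of −2.14 (SE 0.22). miR-196b-5p was higher in spheroids, at 713, 1157, 1173 and 1168 CPM against 540.1, 471, 317 and 599.5 CPM, with a log2 fold change of 1.13 (SE 0.21, FDR 5.15e-05, edgeR's quasi-likelihood test). That call was lost without adherent shRELA replicate 3 (0.96) or spheroid shRELA replicate 3 (0.96) or 4 (0.98). It was also lost when no filter on low counts was used (0.97). miR-196a-5p stayed at a log2 fold change of 0.16 (SE 0.15). Of the 7 members, 4 were called lower and 1 higher, against a background of 32.6%, with 15.8% lower and 16.8% higher.

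With shRELB the culture difference of the miR-10 strands was smaller. miR-10a-5p went from 2657, 2264, 2651 and 2472 CPM in adherent shRELB to 763, 906, 1368 and 1460.1 CPM in spheroid shRELB, a log2 fold change of −1.16 (SE 0.20, FDR 1.85e-05, edgeR's quasi-likelihood test). It was the only miR-10 strand called. The log2 fold changes of miR-10a-3p, miR-10b-5p and miR-10b-3p were −0.80, −0.69 and −1.002, with FDRs of 0.00935, 0.00824 and 0.0240 in the same test. Without spheroid shNeg replicate 1, miR-10b-3p was at −0.994 with an FDR of 3.39e-04 in that test, short of the fold threshold. miR-196b-5p was higher in spheroids, at a log2 fold change of 1.00 (SE 0.21) that only just passed the fold threshold. It lost the call without adherent shRELB replicate 1 or 2, or without spheroid shRELB replicate 1, 2 or 3, at values of 0.88 to 0.98. It was also lost with DESeq2 (0.99), median-ratio size factors (0.99) or no filter on low counts (0.80). miR-10b-3p was called instead with DESeq2 (−1.02) and with no filter (−1.19). Leaving out adherent or spheroid shRELB replicate 1 or 2 left 1 member called in place of 2. The background was 25.0%, with 11.4% lower and 13.6% higher.

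How far each knockdown changed the members in spheroids was the next question, answered against the spheroid shNeg libraries. RELB knockdown raised 5 of the 7: miR-196b-5p, miR-196a-5p, miR-10b-5p, miR-10a-3p and miR-10b-3p. The background was 13.4%, with 7.29% higher and 6.08% lower, and with library totals 42 of 123 calls were higher, against 66 of 121 with TMM. miR-196b-5p was at 329, 471, 577 and 474 CPM with spheroid shNeg and at 1732, 1457, 1482 and 932 CPM with spheroid shRELB. Every shRELB library was above every shNeg library, and the log2 fold change was 1.60 (SE 0.22, FDR 5.63e-07, edgeR's quasi-likelihood test), or 3.03-fold. miR-196a-5p, at 15026, 14534, 15938 and 14708 CPM with shRELB, was also above all of its controls, at a log2 fold change of 1.07 (SE 0.15). That lies close to the fold threshold, and the call was lost with median-ratio size factors (0.92), library totals (0.80), DESeq2 (0.92) or without spheroid shNeg replicate 4 (0.93).

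miR-10b-5p was at 492, 634, 933 and 952 CPM in spheroid shRELB, from 332 ± 46.5 CPM in spheroid shNeg, a log2 fold change of 1.18 (SE 0.21, FDR 5.86e-05, edgeR's quasi-likelihood test). It was 0.91 with library totals, short of the fold threshold. miR-10b-3p was at 34.8, 47.9, 55.3 and 63.7 CPM, with a log2 fold change of 2.02 (SE 0.41), and 1.62 when replicate 1 of spheroid shNeg was left out. miR-10a-3p had 1.29 (SE 0.26). miR-10a-5p was above its controls in every library too, but at 0.80 (SE 0.20, FDR 0.00277, edgeR's quasi-likelihood test) it did not reach the fold threshold. In all these miR-10 strands, replicates 3 and 4 of spheroid shRELB were above replicates 1 and 2. miR-615-3p had a log2 fold change of −0.47 (SE 0.22, FDR 0.107, edgeR's quasi-likelihood test) with overlapping groups. When only the spheroid shRELB and shNeg libraries were fitted, miR-196b-5p alone stayed called. That fit also cut the calls over all miRNAs, from 121 to 41.

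RELA knockdown in spheroids raised miR-196b-5p, the only member called, with values in every library above all controls and a log2 fold change of 1.19 (SE 0.21, FDR 5.69e-05, edgeR's quasi-likelihood test). With library totals it was 0.79 and not called. miR-196a-5p was at 11459, 15174, 14546 and 14895 CPM with spheroid shRELA, against 7182 ± 833 CPM with spheroid shNeg. Its log2 fold change of 0.96 (SE 0.15, FDR 7.98e-06, edgeR's quasi-likelihood test) was just under the fold threshold. Leaving out replicate 1 of spheroid shNeg (1.01) or of spheroid shRELA (1.02) put it past, which gave 2 members called. The miR-10 strands overlapped their controls. miR-10a-5p was at 0.19 (SE 0.20) and miR-10b-5p at 0.28 (SE 0.21), and both turned negative with library totals, at −0.21 and −0.12. miR-10b-3p was at 0.95 (SE 0.42, FDR 0.0921, edgeR's quasi-likelihood test), and at 0.55 without spheroid shNeg replicate 1. The background was 15.1%, with 7.51% higher and 7.62% lower, and with library totals 26 of 136 calls were higher, against 68 of 137 with TMM.

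Both knockdowns were compared with the same spheroid shNeg libraries, so the rise of miR-196 in both shares its controls. Base composition moved here as well: miRNAs of under 45% G and C had a median log2 fold change of 0.75 with shRELA and 0.69 with shRELB, and those of 60% or more had −0.47 and −0.19. Of the 180 other miRNAs under 45%, 108 had a lower log2 fold change than miR-196a-5p with shRELA and 115 with shRELB. For miR-10b-3p 146 were lower with shRELB, and for miR-10a-5p 97. The part of base composition in these changes was not tested.

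The direct comparison of the knockdowns in spheroids does not use the shNeg libraries except through the shared spread. Each miR-10 strand was lower with shRELA than with shRELB, at log2 differences of −0.60, −0.89, −0.91 and −1.07 for miR-10a-5p, miR-10a-3p, miR-10b-5p and miR-10b-3p. Their FDRs were 0.0323, 0.0129, 0.00226 and 0.0488 (edgeR's quasi-likelihood test). None of the 7 members was called, with 4 at an unadjusted p under 0.05 and 0 called with DESeq2. With library totals miR-10a-3p (−1.003) and miR-10b-5p (−1.03) were called. The count rose to 1 without spheroid shNeg replicate 1, where miR-10b-3p was called at −1.08 (FDR 8.73e-04, edgeR's quasi-likelihood test). It was also 1 without spheroid shRELA replicate 4 or spheroid shRELB replicate 2, and 2 without spheroid shRELB replicate 1. The miR-196 guides differed by −0.10 (SE 0.15) and −0.41 (SE 0.21). The fibroblast and smooth muscle markers summed to 64.0 to 91.6 CPM with spheroid shRELA and to 199 to 334 CPM with spheroid shRELB, and miR-126-3p was at 1047 to 1597 and 549 to 1184 CPM. Their part in the miR-10 differences was not tested. The background of calls, not of an unadjusted p, was 6.63%, with 2.76% higher and 3.87% lower. With library totals 16 of 63 calls were higher, against 25 of 60 with TMM.

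In adherent culture neither knockdown gave a called member. RELA knockdown had 0 of 7 called with edgeR's quasi-likelihood test and 0 with DESeq2, against a background of 3.76% called, 1.10% higher and 2.65% lower. In edgeR's test 2 members had an unadjusted p under 0.05. The share of all miRNAs at that p is not given. With library totals 6 of 34 background calls were higher, against 10 of 34 with TMM. The 2 were miR-615-3p and miR-196b-5p, and both kept clear of their controls. miR-615-3p, with 63.6% G and C, was at 72.5, 70.6, 73.5 and 78.9 CPM with shRELA, and at 42.5, 36.5, 48.4 and 50.4 CPM with shNeg. Its log2 fold change was 0.73 (SE 0.21, FDR 0.0202, edgeR's quasi-likelihood test). miR-196b-5p went from 719 ± 76.4 to 482 ± 122 CPM (SD, n = 4), at −0.58 (SE 0.21, FDR 0.0982, edgeR's quasi-likelihood test). The other 5 members had log2 fold changes between −0.29 and 0.23. The interval of 2 SE on each side ran from −0.16 to 0.63 for miR-10a-5p and from −0.56 to 0.27 for miR-10b-5p, which leaves room for changes of less than 2-fold.

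RELB knockdown in adherent cells had 0 of 7 called with edgeR's quasi-likelihood test and 0 with DESeq2. The background was 7.07% called, 3.54% higher and 3.54% lower. In edgeR's test 1 member had an unadjusted p under 0.05, again with no share of all miRNAs at that p. With library totals 46 of 74 background calls were higher, against 32 of 64 with TMM. The 1 member was miR-10b-5p, at 1206, 1061, 1376 and 1217 CPM, each below all 4 controls, with a log2 fold change of −0.69 (SE 0.21, FDR 0.0237, edgeR's quasi-likelihood test). Its partner miR-10a-5p was at −0.08 (SE 0.20), with an interval from −0.47 to 0.32, and turned to 0.06 with library totals. miR-196b-5p was at −0.04 (SE 0.21) and turned to 0.09 with library totals. miR-10b-3p and miR-615-3p did not overlap their controls, at −0.33 and 0.39 (FDR 0.612 and 0.244, edgeR's quasi-likelihood test). The 2 knockdowns compared directly in adherent cells gave 0 called members with edgeR's quasi-likelihood test and with DESeq2, and 2 at an unadjusted p under 0.05. These were miR-10b-5p, at 0.54 higher on the log2 scale with shRELA than with shRELB, and miR-196b-5p at −0.53. The background of calls, not of an unadjusted p, was 10.9%, with 4.31% higher and 6.63% lower. With library totals 23 of 106 calls were higher, against 39 of 99 with TMM.

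**Figure D3:**
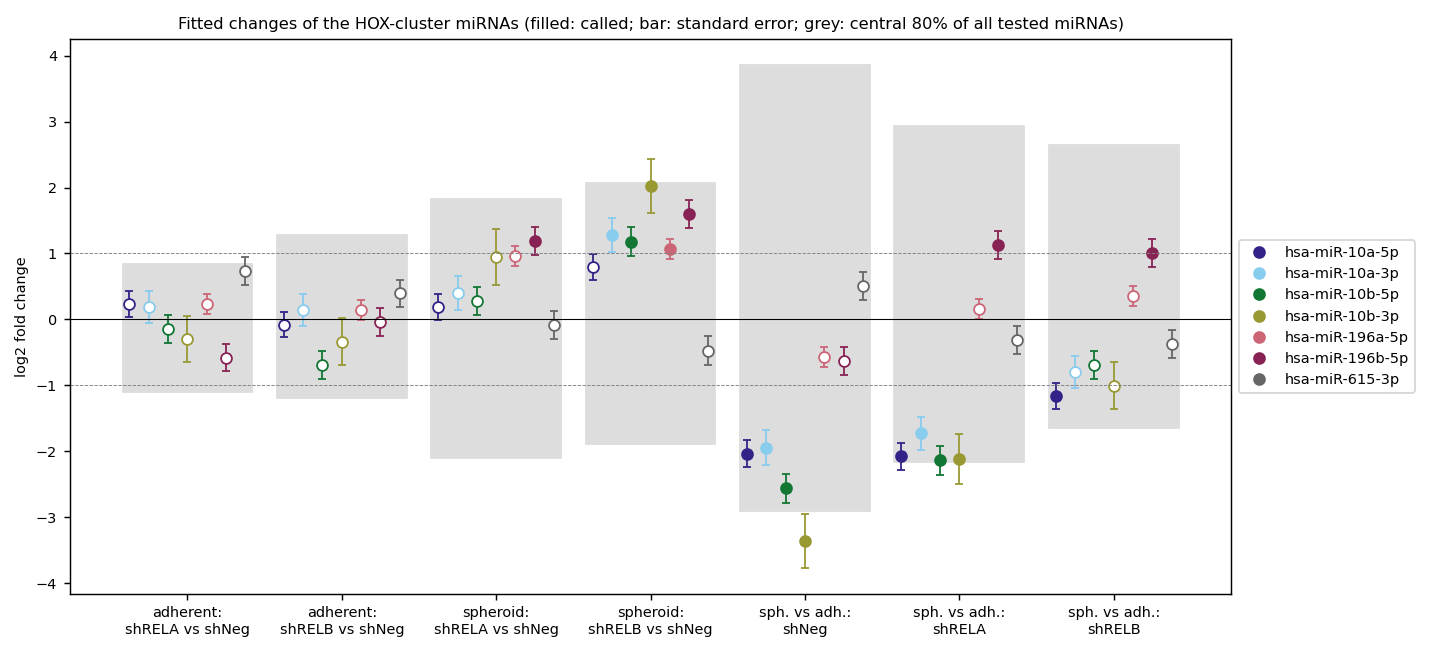
Fitted log2 fold change (vertical axis) of each member in the 4 knockdown and 3 culture comparisons, with bars of 1 SE and filled points for calls. Grey boxes span the central 80% of all 905 tested miRNAs and dashed lines mark a 2-fold change. The adherent knockdown columns hold no filled point, the spheroid shRELB column holds 5, and the miR-10 points are at or below −1.73 in the shNeg and shRELA culture columns.

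Whether a knockdown acted differently in spheroids and in adherent cells was tested as the difference between its changes in the 2 cultures, which is also the difference in culture effect between that line and shNeg. For RELB knockdown this was called for miR-10b-5p, miR-10b-3p and miR-196b-5p, at 1.87 (SE 0.30, FDR 4.27e-05), 2.36 (SE 0.54, FDR 0.00219) and 1.64 (SE 0.30, FDR 2.06e-04) on the log2 scale in edgeR's quasi-likelihood test. miR-10b-3p was at 1.96 without spheroid shNeg replicate 1 and still called. With library totals it was at 1.93 and not called (FDR 0.0114 in the same test). miR-10a-5p and miR-10a-3p were at 0.87 and 1.14, with FDRs of 0.0274 and 0.0234 in that test. Without spheroid shNeg replicate 1, miR-10a-3p was at 1.16 and called. miR-196a-5p was at 0.92 and miR-615-3p at −0.87. miR-615-3p was called, in the lower direction, with library totals (−1.26) or a mean of at least 10 CPM (−1.15). The 3 calls rose to 5 without spheroid shNeg replicate 3 or spheroid shRELB replicate 1 and to 6 without spheroid shRELB replicate 2. The background was 8.51%, with 4.64% higher and 3.87% lower, and with library totals 17 of 89 calls were higher, against 42 of 77 with TMM. Base composition moved with this difference too. Its median was 0.99 for miRNAs of under 45% G and C and −0.75 for those of 60% or more. Of the 180 other miRNAs under 45%, 84 were lower than miR-10a-5p, 102 than miR-10a-3p, 146 than miR-10b-3p and 87 than miR-196a-5p. For the class of 45% to 60%, which holds miR-196b-5p, the median was 0.22. The part of base composition was not tested.

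For RELA knockdown, miR-196b-5p was the only member called, at a difference of 1.76 (SE 0.30, FDR 1.22e-04, edgeR's quasi-likelihood test). It was lower than control in adherent and higher in spheroid cells. miR-196a-5p was at 0.73 (SE 0.21, FDR 0.0174, edgeR's quasi-likelihood test) and miR-615-3p at −0.82 (SE 0.30). miR-615-3p was called, in the lower direction, with DESeq2 (−1.04), library totals (−1.11) or a mean of at least 10 CPM (−1.02). The miR-10a strands were at −0.04 and 0.21, miR-10b-5p at 0.42 (SE 0.30) and miR-10b-3p at 1.24 (SE 0.55, FDR 0.130, edgeR's quasi-likelihood test), or 0.84 without spheroid shNeg replicate 1. The background was 7.62%, with 4.31% higher and 3.31% lower, and with library totals 19 of 69 calls were higher, against 39 of 69 with TMM. By base composition, the median was 0.81 for miRNAs of under 45% G and C and −0.67 for those of 60% or more. For the class of 45% to 60%, which holds miR-196b-5p, it was 0.42. Of the 180 other miRNAs under 45%, 87 were lower than miR-196a-5p and 121 than miR-10b-3p. The part of base composition was not tested here either.

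Ratios within a library do not depend on how libraries are scaled, so the paralogues and the hairpin arms were also compared directly, with 0.5 counts added. There were 28 tests, 4 ratios in 7 comparisons, by a 2-sided exact permutation test of 4 against 4 libraries. The smallest p it allows is 0.0286, and the smallest value adjusted over the 28 was 0.0727, so none passed after adjustment. miR-10a-5p to miR-10b-5p was 1.31 to 1.39 in the adherent shNeg libraries. It was 1.66 to 2.16 in spheroid shNeg, 1.93 to 2.20 in adherent shRELB and 1.43 to 1.55 in spheroid shRELB. So the ratio was higher in spheroids than in adherent cells with shNeg, and lower with shRELB, by 0.52 and −0.47 on the log2 scale, each without overlap and at the smallest exact p. Against shNeg it differed with shRELB by 0.61 in adherent and by −0.38 in spheroid cells, again without overlap. With shRELA it differed by 0.40 in adherent cells, without overlap and at the same exact p, and by −0.08 in spheroid cells, with overlap. The shRELA ratio was 1.41 to 2.18 in adherent and 1.76 to 1.997 in spheroid cells, which overlapped.

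miR-196a-5p to miR-196b-5p was 13.3 to 15.8 in adherent shNeg and 24.6 to 29.7 in adherent shRELA, a log2 difference of 0.82 at the smallest exact p. In adherent shRELB it was 15.8 to 18.9, a log2 difference of 0.18 from shNeg, also without overlap and at the smallest exact p. In spheroids it was 12.8 to 24.1 with shNeg, 12.4 to 16.1 with shRELA and 8.67 to 15.8 with shRELB, and these groups overlapped. The highest spheroid shNeg value was that of replicate 1. Against spheroid shNeg the ratio differed by −0.22 with shRELA and −0.52 with shRELB, or by −0.017 and −0.31 without replicate 1. The culture difference of the ratio was −0.96 with shRELA and −0.62 with shRELB, each without overlap. With shNeg it was 0.08, and it turned to −0.12 without spheroid shNeg replicate 1.

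Both arms of miR-10a were lower in spheroids with each shRNA. miR-10a-5p to miR-10a-3p was 13.9 to 16.1 in adherent shNeg, and the lowest ratio, 8.72, was in spheroid shRELB. All 7 comparisons of this ratio overlapped, which does not show that the arms changed equally. The log2 differences ran from −0.41 (RELB knockdown in spheroids) to 0.04 (RELA knockdown in adherent cells). miR-10b-5p to miR-10b-3p was 14.1 to 16.2 in adherent shNeg and 10.9 to 13.4 in adherent shRELB, a log2 difference of −0.36 without overlap. In spheroid shNeg it was 16.6 to 871, where the highest value came from the 0 count in replicate 1. Its culture difference with shNeg was 1.86 on the log2 scale with that library and 0.54 without it. Against spheroid shNeg it differed by −1.70 with shRELA and −1.92 with shRELB, or by −0.37 and −0.60 without that library.

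**Figure D4:**
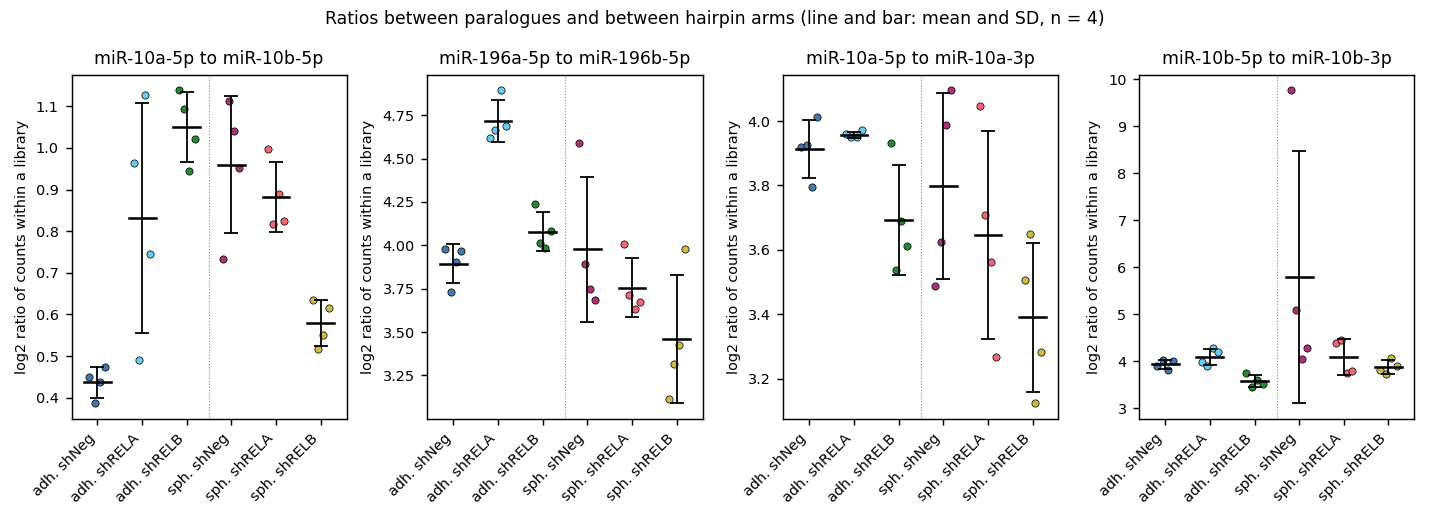
Log2 ratio of counts within each library for 2 pairs of paralogues and for the arms of both miR-10 hairpins, by culture and shRNA, each panel with its own vertical axis. Points are libraries, and the line and bar are the mean and SD of 4. The miR-10a-5p to miR-10b-5p ratio is lowest in adherent shNeg, and the outlying point of the last panel is spheroid shNeg replicate 1.

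The other arms of the same hairpins were nearly absent. Of 4, miR-196a-3p and miR-196b-3p passed the filter on low counts and miR-196a-1-3p and miR-615-5p did not, and none had over 30 counts in a library. miR-196b-3p, the passenger of the HOXA hairpin, had 2 to 12 counts in each adherent library, 2 counts in all over the spheroid shNeg libraries and 0 with either knockdown. miR-196a-3p summed to 16, 40 and 23 counts in adherent shNeg, shRELA and shRELB, of which 30 were in 1 shRELA library. It summed to 0, 0 and 5 counts in the matching spheroid groups. Both were fitted, but with at most 3 counts in a spheroid library the size of their fold changes is poorly fixed. For spheroid against adherent cells with shNeg, shRELA and shRELB, the fitted log2 fold changes of miR-196b-3p were −2.17, −4.90 and −5.46. Those of miR-196a-3p were −4.57, −5.69 and −1.05.

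Across the 24 libraries, the miRNA whose log2 CPM was most like that of miR-10a-5p was miR-10b-5p (Pearson's r 0.97), ahead of miR-128-3p and miR-30e-5p (r 0.97 and 0.96), among 334 candidates with a mean of at least 10 CPM. miR-10a-3p was most like miR-128-3p, miR-10a-5p and miR-10b-5p (r 0.96, 0.96 and 0.94). After its paralogue and miR-10a-3p, miR-10b-5p was most like miR-421 (r 0.94). For miR-10b-3p these were miR-628-3p, miR-26b-5p and miR-23a-3p (r 0.96, 0.95 and 0.95). miR-196a-5p was most like miR-330-3p, miR-30a-3p and miR-183-5p (r 0.87, 0.80 and 0.80), and miR-196b-5p was most like miR-200c-3p, miR-629-5p and miR-652-3p (r 0.85, 0.79 and 0.76). miR-615-3p had weaker matches, to miR-339-5p, miR-197-3p and miR-93-5p (r 0.68, 0.65 and 0.64). These values are descriptions over libraries that share 2 cultures and the same scaling. Neither miR-196 guide was among the 3 most like the other.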

How the data were processed

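Small RNA libraries were made with the QIAseq miRNA kit and read from 1 end on a NextSeq. The authors removed adapters with Cutadapt and matched the reads to miRBase on GRCh38 with miRDeep2. The deposited table, although named for CPM, holds estimated counts of each mature miRNA that were not scaled to a common depth. The kit adds UMIs, and whether they were collapsed is not given in the sources used here. Values that were not whole (3.04% of non-zero values, on 84 miRNAs, among them miR-196a-5p, whose reads are split over hairpins) were rounded.

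A miRNA was tested where it reached 1 CPM in 4 or more libraries. Counts of the 24 libraries were scaled by TMM and fitted with edgeR 4.0.16 (quasi-likelihood, R 4.3.3) by group alone, without further terms, and FDRs are Benjamini-Hochberg values over all 905 miRNAs. Each SE is the size of the log2 fold change over the square root of F. Alternatives included DESeq2 1.42.0, other scalings and filters, and each library left out. Exact permutation tests used scipy 1.17.1. All members were named, and for each the 3 miRNAs of highest Pearson's r. The members, lists and tests were chosen with earlier results of these data known. Limits at a count of 0 cover counting error only.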

Additional observations from a re-analysis of the deposited data

Results flagged for a closer look

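Of 42 sets of 4 libraries (7 members in 6 groups), 3 had a library far from the rest of its group by Dixon's test at the 95% level, and chance alone gives about 1 in 20. miR-196b-5p in spheroid shRELA was at 713 CPM in replicate 1, where the next library was at 1157 CPM. The same library had the lowest miR-196a-5p, at 11459 CPM, with the next at 14546 CPM. miR-10a-3p in spheroid shNeg was at 42.1 CPM in replicate 4, with the next at 46.7 CPM.

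The effect of a knockdown differed between adherent and spheroid cells, by the test of the difference itself, for 3 members. The log2 difference, spheroid minus adherent, was 1.76 for miR-196b-5p with RELA knockdown. With RELB knockdown it was 1.87 for miR-10b-5p, 2.36 for miR-10b-3p and 1.64 for miR-196b-5p. These are 1 of 7 members called for RELA and 3 of 7 for RELB knockdown, against 7.62% and 8.51% of all tested miRNAs. With library totals miR-10b-3p was not called (FDR 0.0114, edgeR's quasi-likelihood test).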

How the results depend on the processing

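Over 72 results of a single member in 1 comparison, the call and direction held in 1282 of 1373 alternatives. A call was lost in 26 and gained in 42, and the sign turned in 23, for 8 results that were not called; the cause was not tested. The low depth of the spheroid shNeg libraries limits the 3p strands.

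In spheroids, RELA knockdown called 1 member and RELB knockdown 5. These counts were 0 and 3 with a mean of at least 10 CPM, 0 and 3 with library totals, and 2 and 1 from fits of only the groups compared, and RELA knockdown had 2 without a fold threshold. Spheroid against adherent shRELB called 2 members, 1 with median-ratio size factors and 4 without a fold threshold. shRELA against shRELB in spheroids called 0, and 1 with no filter, at an FDR below 0.05, without a fold threshold or with only the groups compared, and 2 with library totals. The culture difference of RELA knockdown called 1, and 2 with a mean of at least 10 CPM, library totals or DESeq2. Leaving out 1 library at a time gave 1 to 2 members for RELA knockdown in spheroids, 4 to 5 for RELB knockdown in spheroids, 1 to 3 for spheroid against adherent shRELB, 0 to 2 for shRELA against shRELB in spheroids and 3 to 6 for the culture difference of RELB knockdown. Calls over all miRNAs with only the groups compared fell from 121 to 41 for RELB and from 137 to 66 for RELA knockdown in spheroids, and rose from 34 to 54 and from 64 to 117 for RELA and RELB knockdown in adherent cells.

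Signs turned as follows. With RELB knockdown in adherent cells, miR-10a-5p was at 0.0062 with a mean of at least 10 CPM and 0.056 with library totals. miR-196b-5p was there at 0.045 and 0.087, and at −0.10 to 0.012 with 1 library left out. With RELA knockdown in adherent cells, miR-10b-5p was at −0.36 to 0.048 with 1 library left out. With RELA knockdown in spheroids, miR-10a-5p was at −0.030 with a mean of at least 10 CPM and −0.21 with library totals, and miR-10b-5p at −0.12 with library totals. miR-196a-5p in shRELA against shRELB in spheroids was at −0.17 to 0.0072 with 1 library left out. For the culture difference of RELA knockdown, miR-10a-5p was at 0.051 with no filter, 0.059 with only the groups compared and −0.17 to 0.18 with 1 library left out, and miR-10a-3p at −0.032 with library totals. The ratio of miR-10b-5p to miR-10b-3p, spheroid against adherent shRELA, was at −0.0047 with 1 count added. With 1 library left out it was at −0.11 to 0.13, and that of miR-10a-5p to miR-10b-5p at −0.063 to 0.15. The ratio of miR-196a-5p to miR-196b-5p, spheroid against adherent shNeg, was at −0.12 to 0.18 with 1 library left out.

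With the replicate number as a block, 5 members were called for RELB knockdown in spheroids and 3 for its culture difference, and no comparison changed its count of members. Calls over all miRNAs were 0.812 to 0.969 of those without the block. Deviations of same-numbered libraries correlated at −0.52 to 0.43, and 3 of 24 libraries correlated best with their own number. Whether same-numbered libraries share more than a number is not stated in the sources used here, and these correlations cannot settle it.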
